A study of Mus musculus with 6 samples.

Results

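Neighbouring CpGs 4 to 40 bp apart were examined in mouse embryonic stem cells in which 1 de novo DNA methyltransferase at a time had been put back. A pair was kept when both CpGs were neighbouring rows of the authors' table on an autosome and each had 10 to 19 CpGs, itself included, in the window reaching 500 bp to each side. Both also needed 5 or more reads in all 3 lines. The line with DNMT3B1 and SETD2 knockout lists only CpGs with 10 or more, so its minimum was in effect 10. The most reads allowed were 45 in the line with DNMT3A2, 40 in that with DNMT3B1 and 80 in that with SETD2 knockout. This gave 1030979 pairs over 1701491 CpGs, of 19807662 neighbouring autosomal pairs at any distance. Of the 7423950 neighbouring pairs 4 to 40 bp apart, 2991410 had that CpG density, and coverage removed the rest of those. Successive pairs can share a CpG, and 35.0% of pairs shared one with the next, so pairs are not independent of each other.

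All lines lack DNMT1, DNMT3A and DNMT3B (triple knockout), were grown as embryonic stem cells and were profiled by whole-genome bisulfite sequencing. The first line carries DNMT3A2, the shorter isoform of DNMT3A. The second carries DNMT3B1. The third carries DNMT3B1 and also lacks SETD2, which places the histone mark H3K36me3. The labels name 2 sequencing runs per line, but the tables hold 1 pair of count columns per line, taken as both runs together, so each line counts as 1 library without a replicate. The cells have no DNMT1, the enzyme that copies methylation after replication, which all 3 lines share. Triple-knockout cells without an introduced enzyme were not analysed here, so the level read in the absence of any enzyme is not known from these values. Mean coverage over the pairs was 13.7 reads per CpG with DNMT3A2, 13.3 with DNMT3B1 and 20.1 in the knockout.

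DNMT3A and DNMT3B add methyl groups to unmethylated CpGs. Their catalytic domains can assemble, with each other or with the catalytically inactive partner DNMT3L, into tetramers in which a pair of active sites faces the same DNA molecule. It has been proposed that such a pair of active sites meets CpGs about 1 turn of the DNA helix apart. CpGs 8 to 10 bp apart would then be preferred joint targets. DNMT3A is known to favour a pyrimidine and DNMT3B a purine right after the CpG.

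The sequences that follow show what such pairs look like at the spacings on which the comparison turns. They come from RefSeq promoters (GRCm38.p6, from 250 bases before a gene's start to 50 after it). Of 17846 autosomal promoters with 6 or more CpGs, 15944 (89.3%) were placed on the authors' mm9 table by matching their successive CpG distances at 1 position, and these hold 2709 of the pairs (0.263%). At each spacing the pair shown is the one with the most methylated reads among pairs that lie wholly before a gene's start, so its values are only an illustration. Capitals mark the CpGs, each run is on the forward strand of the genome, and positions are those of the authors' mm9 table.

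4 bp, Myh2: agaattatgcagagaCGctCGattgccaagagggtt
7 bp, Gm52097: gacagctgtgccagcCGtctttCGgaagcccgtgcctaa
8 bp, Gm39601: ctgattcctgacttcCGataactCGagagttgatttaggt
9 bp, Gm52906: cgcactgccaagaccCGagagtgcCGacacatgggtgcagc
10 bp, Prss23: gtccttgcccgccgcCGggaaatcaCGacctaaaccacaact
11 bp, Gm52240: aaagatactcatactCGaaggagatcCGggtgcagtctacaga

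The 4 bp pair lies at chr11:66984438-66984473, centred 73 bases before the start of Myh2, a fast skeletal myosin heavy chain gene on the forward strand. With DNMT3A2 14 of 28 reads were methylated at its first CpG and 10 of 33 at its second. With DNMT3B1 the same CpGs had 0 of 13 and 0 of 15 methylated reads, and in the knockout 0 of 24 and 12 of 34. The 9 bp pair, at chr6:72181388-72181428 before Gm52906, had 1 of 19 and 8 of 18 methylated reads with DNMT3A2. It had 2 of 25 and 4 of 26 with DNMT3B1, and 10 of 29 and 12 of 29 in the knockout. The 10 bp pair, at chr7:96675811-96675852 before Prss23, a serine protease gene on the reverse strand, had 9 of 23 and 2 of 26 methylated reads with DNMT3A2. The DNMT3B1 line had 0 of 16 and 6 of 15 there, and the knockout 6 of 11 and 5 of 12. Even in these pairs, picked for many methylated reads, the 2 CpGs of a pair often differed. The 7, 8 and 11 bp pairs lie at chr14:29195210-29195248, chr11:19518930-19518969 and chr16:18795910-18795952, before predicted genes.

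Methylation in these cells was sparse. Over all pairs, 9.57% ± 0.0742 of reads were methylated with DNMT3A2, 3.42% ± 0.0320 with DNMT3B1 and 7.05% ± 0.0460 in the knockout. Here and throughout, the error is the SE obtained by leaving out each of the 19 autosomes in turn, or each of 18 for promoter levels. It describes how even the value was along the genome of 1 library, and autosomes are not replicates of a line. Single autosomes ranged from 9.03% to 10.0%, from 3.27% to 3.64% and from 6.84% to 7.37%, so the 3 lines did not overlap. Neither CpG had a methylated read in 34.1% of pairs with DNMT3A2, 66.5% with DNMT3B1 and 36.1% in the knockout. Of the 1030979 pairs, both CpGs were at 50% or more in 5522 with DNMT3A2, 749 with DNMT3B1 and 1227 in the knockout. Exactly 1 of the CpGs was that high in 43595, 12134 and 20269 pairs, respectively. These shares and counts depend on read depth, which was higher in the knockout (20.1 reads per CpG against 13.7 and 13.3). They therefore do not compare the lines at equal depth.

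Methylation fell slowly with the distance between the CpGs in every line, with a bump at 7 bp, a trough at 11 bp and a second bump at 14 to 15 bp. With DNMT3A2 the level was 11.8% ± 0.121 at 4 bp and 10.1% ± 0.110 at 5 bp, 9.86% at 6 bp and 10.5% ± 0.0877 at 7 bp. It was 10.2% ± 0.0876 at 8 bp, 9.68% ± 0.0993 at 9 bp and 9.57% ± 0.112 at 10 bp. It was 9.42% ± 0.0821 at 11 bp, 9.52% at 12 bp and 9.62% at 13 bp, and then 10.0% ± 0.111 at 15 bp. The spacings from 8 to 10 bp thus lay on a descending slope between the bump and the trough.

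The DNMT3B1 line showed the same bumps and trough at a lower level. It held 3.69% ± 0.0523 at 4 bp, 3.70% ± 0.0438 at 5 bp, 3.48% at 6 bp and 3.81% ± 0.0388 at 7 bp, its highest level. It held 3.60% ± 0.0663 at 8 bp, 3.45% ± 0.0315 at 9 bp, 3.38% ± 0.0433 at 10 bp and 3.29% ± 0.0537 at 11 bp. Levels of 3.34% at 12 bp and 3.50% at 13 bp led to 3.61% ± 0.0549 at 14 bp. The knockout ran through 7.47% ± 0.0864 at 4 bp, 7.53% ± 0.0925 at 5 bp, its highest level, 7.12% at 6 bp and 7.51% ± 0.0401 at 7 bp. At 8, 9, 10 and 11 bp it held 7.24% ± 0.0767, 7.11% ± 0.0584, 6.92% ± 0.0498 and 6.85% ± 0.0512. It then held 6.94% at 12 bp, 7.04% at 13 bp and 7.27% ± 0.0872 at 15 bp. The lowest level stood at 35 bp in each line, at 8.73%, 3.20% and 6.71%.

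**Figure D1:**
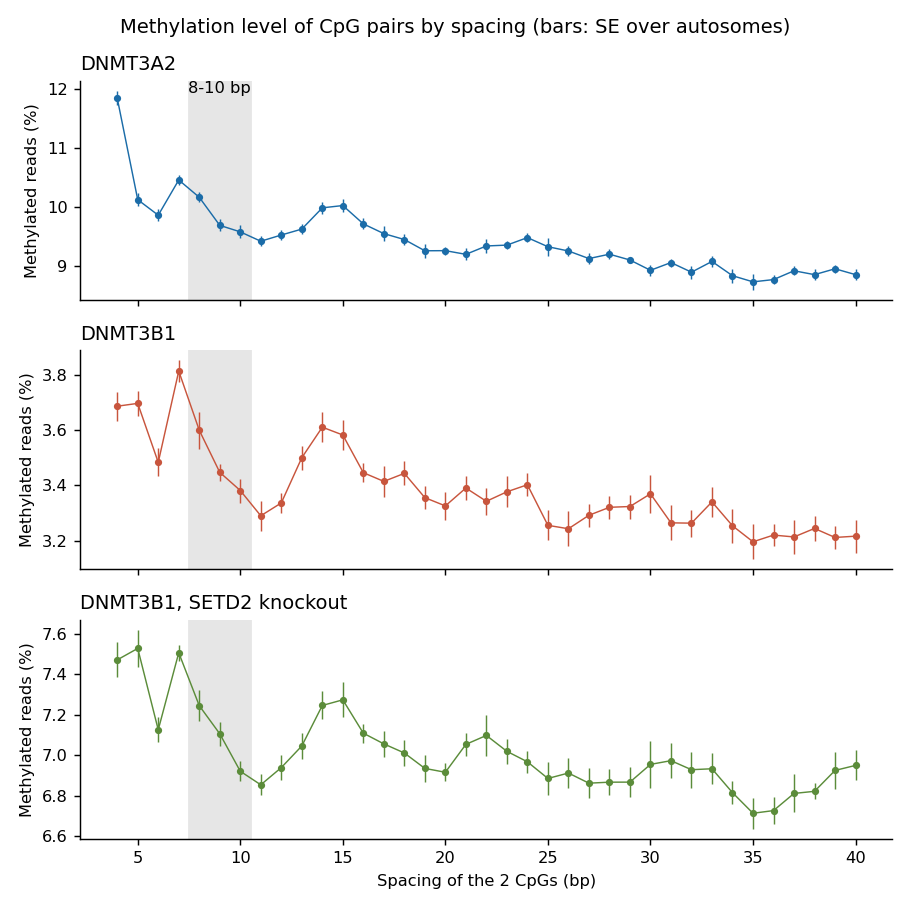
Methylated reads as a percentage of all reads at both CpGs (vertical axes, not starting at 0 and scaled per line) against the distance between the CpGs in bp, with 1 panel per line; points are all pairs of that spacing, bars the SE over autosomes, and grey marks 8 to 10 bp. In each panel the level declines across the grey band to a trough at 11 bp and is higher again at 14 to 15 bp; the DNMT3A2 panel has its highest point at 4 bp (11.8%).

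The 7 bp bump and the 11 bp trough were picked out after the levels had been seen, and their difference was even along the genome. The autosomes are those that gave the curves, so they are no separate check of that choice. The general fall with distance was not removed from this difference. The level at 7 bp was 1.11-fold that at 11 bp with DNMT3A2, 1.16-fold with DNMT3B1 and 1.10-fold in the knockout, and was higher at 7 bp on 19 of 19 autosomes in each line. Once a smooth quadratic trend with spacing was removed, the wiggles of the level curves over 37 spacings had a Pearson r of 0.575 between the DNMT3A2 and DNMT3B1 lines. It was 0.617 between the DNMT3A2 line and the knockout and 0.845 between the DNMT3B1 line and the knockout. These describe curves over the same CpGs, which share their base composition and position in all 3 lines.

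To ask whether 8 to 10 bp stood above its surroundings, the mean of the log2 levels at 8, 9 and 10 bp was set against the mean at 5, 6, 7, 11, 12 and 13 bp, flanks that cancel a straight trend. The levels on the 2 sides averaged 9.81% against 9.83% with DNMT3A2, 3.48% against 3.52% with DNMT3B1 and 7.09% against 7.17% in the knockout. The log2 contrast was -0.0032 ± 0.0051 with DNMT3A2, with 95% limits of -0.013 and 0.0068. It was -0.017 ± 0.0075 with DNMT3B1 (-0.031 to -0.0018) and -0.015 ± 0.0066 in the knockout (-0.027 to -0.0018). It was negative on 12, 13 and 13 of 19 autosomes. No line therefore had a raised level at 8 to 10 bp with these settings. The sign of the contrast turned with the processing in each line. When 10 or more reads were required it came to 0.0027 with DNMT3A2, 0.0026 with DNMT3B1 and 5.8e-04 in the knockout. For CpGs with 1 other CpG between them it was 0.025 ± 0.018, 0.033 ± 0.038 and 0.061 ± 0.027, the last with a lower 95% limit above 0. Over all 13 alternatives the contrast with DNMT3A2 ran from -0.055 to 0.025, and 3 of them had limits that left out 0. With DNMT3B1 it ran from -0.076 to 0.033, and 6 had such limits. In the knockout it ran from -0.046 to 0.061, and 5 had such limits. The contrast differed between the DNMT3B1 and DNMT3A2 lines by -0.013 ± 0.0073, and between the knockout and the DNMT3B1 line by 0.0020 ± 0.0097, and the knockout differed from the DNMT3A2 line by -0.011 ± 0.0068. Each of these differences had 0 inside its 95% limits.

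**Figure D2:**
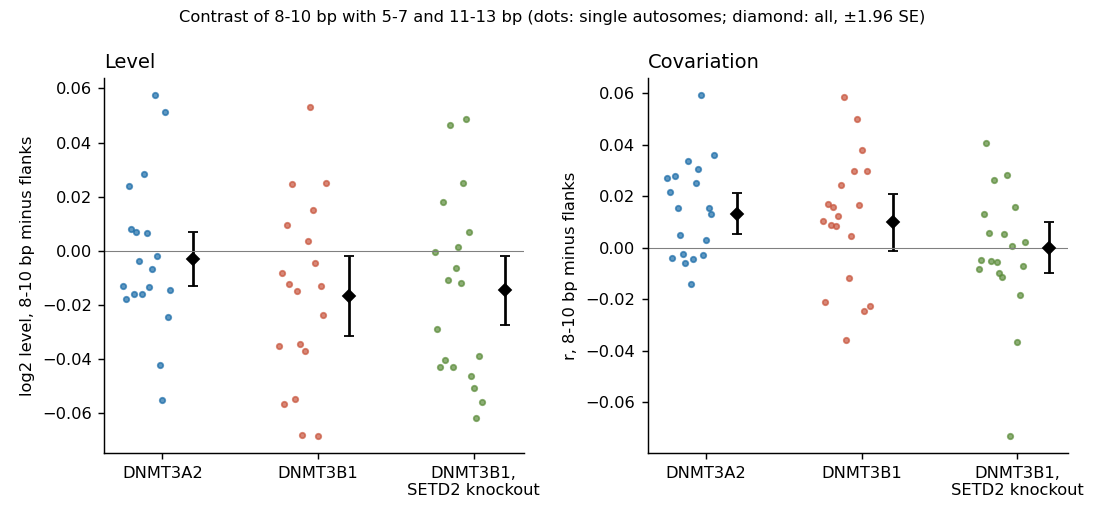
Value at 8 to 10 bp minus value at 5 to 7 and 11 to 13 bp for the log2 methylation level (left) and for the correlation of the 2 CpGs (right), by line on the horizontal axis; coloured dots are single autosomes, diamonds all autosomes with their 95% limits. Dots scatter to both sides of 0 in every column, and among the correlation contrasts the DNMT3A2 diamond (0.013) is the one whose interval leaves out 0.

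Covariation between the CpGs of a pair fell with their distance. It was measured as the Pearson r, over pairs, between the levels of the first and the second CpG in the same line. It is given as a description, since the points of one line come from 1 library and short pairs are read by the same DNA fragments. Over all spacings r reached 0.318 ± 0.00158 with DNMT3A2, 0.165 ± 0.00178 with DNMT3B1 and 0.213 ± 0.00167 in the knockout. The level and depth of a line affect r through counting error, so these values do not rank the lines. A second measure, relative covariance, divides the covariance of the 2 levels by the product of their means. At 8 to 10 bp it averaged 0.824, 1.38 and 0.712 in the same order of lines, which ranks them otherwise. Both CpGs had a methylated read in 30.1% of pairs of the DNMT3A2 line, against 23.1% if CpGs were independent within a spacing. The same shares were 6.68% against 4.03% with DNMT3B1 and 24.0% against 19.3% in the knockout. Joint methylation was above that share in each line. The share takes no account of read depth, which varied between pairs and was similar within a pair. An excess over it can therefore arise without covariation.

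With DNMT3A2 r was 0.452 ± 0.00635 at 4 bp, its highest value, then 0.414, 0.398 and 0.383 at 5, 6 and 7 bp. It was 0.386 ± 0.00491 at 8 bp, 0.388 ± 0.00485 at 9 bp and 0.393 ± 0.00727 at 10 bp, and then 0.364, 0.350 and 0.345 at 11, 12 and 13 bp. The curve therefore paused between 7 and 10 bp and dropped by 0.0288 ± 0.00896 from 10 to 11 bp, a drop seen on 14 of 19 autosomes. By 40 bp r was at its lowest, 0.181. Relative covariance with DNMT3A2 was instead highest at 10 bp, at 0.856, against 0.842 at 5 bp and 0.795 at 4 bp. No SE was computed for it at single spacings.

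With DNMT3B1 r was lower at the shortest distances, 0.179 ± 0.00753 at 4 bp and 0.192 at 5 bp, than at 6 and 7 bp, where it was 0.212 and 0.217. It was 0.213 ± 0.0105 at 8 bp, 0.218 ± 0.0102 at 9 bp, its highest value, and 0.197 ± 0.00900 at 10 bp. It was 0.205, 0.193 and 0.178 at 11, 12 and 13 bp, and its lowest value was 0.0896 at 38 bp. The maximum at 9 bp exceeded the values at 6, 7, 8 and 11 bp by less than the 2 SEs added together. In the knockout r was 0.252 ± 0.00710 at 4 bp, 0.291 at 5 bp, 0.295 ± 0.00671 at 6 bp, its highest value, and 0.290 at 7 bp. It was 0.279, 0.268 and 0.279 at 8, 9 and 10 bp and 0.249, 0.265 and 0.261 at 11, 12 and 13 bp. Its lowest value was 0.0781 at 38 bp. Relative covariance was highest at 9 bp with DNMT3B1, at 1.455 against 1.409 at 6 bp and 1.438 at 11 bp. In the knockout it was highest at 6 bp, at 0.775.

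The same relation can be read as the partner's level. At 9 bp, CpGs whose partner had at least 1 methylated read were methylated in 13.4% of reads with DNMT3A2, against 5.75% where the partner had none. The values were 5.91% against 2.74% with DNMT3B1 and 9.30% against 5.21% in the knockout. At 40 bp the contrast was smaller, with 10.8% against 6.99%, 4.48% against 2.89% and 7.77% against 6.27%.

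The contrast of r at 8 to 10 bp with its flanks was 0.0131 ± 0.00403 with DNMT3A2, with 95% limits of 0.00523 and 0.0210 and a positive sign on 13 of 19 autosomes. The mean r was 0.389 at 8 to 10 bp, between 0.398 at 5 to 7 bp and 0.353 at 11 to 13 bp. The contrast was 0.00980 ± 0.00572 with DNMT3B1 (-0.00142 to 0.0210; positive on 14 of 19 autosomes). In the knockout it was 6.35e-06 ± 0.00505 (-0.00990 to 0.00991; positive on 9 of 19). The differences between lines were -0.00334 ± 0.00568 for DNMT3B1 minus DNMT3A2 and -0.00979 ± 0.00824 for the knockout minus DNMT3B1, both with 0 inside their 95% limits. The difference for the knockout minus DNMT3A2, added after the data had been seen, was -0.0131 ± 0.00657, with 95% limits of -0.0260 and -2.5e-04 and a negative sign on 11 of 19 autosomes. Its limits left out 0 under 5 of 13 alternative settings, and in sequence of 20 to 39 CpGs per kb it was 0.00212. With DNMT3A2 the contrast was 0.00122 among pairs in denser sequence of 20 to 39 CpGs per kb. The 95% limits of the DNMT3A2 contrast left out 0 under 9 of 13 alternative settings. Mean relative covariance at 8 to 10 bp was 0.824 with DNMT3A2, against 0.782 in the flanks. It was 1.38 against 1.31 with DNMT3B1 and 0.712 against 0.705 in the knockout. In the knockout it was higher at 5 to 7 bp, at 0.735.

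The excess at 8 to 10 bp was next set beside the same contrast centred on every distance from 8 to 36 bp. For r with DNMT3A2, the contrast at 9 bp (0.0131 ± 0.00403) ranked 2 of 29 centres, behind 0.0147 ± 0.00534 at 32 bp. The lowest was -0.0143 ± 0.00556 at 35 bp. With DNMT3B1 the contrast at 9 bp ranked 7 of 29 behind a highest value of 0.0198 ± 0.00479 at 8 bp. In the knockout it ranked 14 of 29 behind 0.0179 ± 0.00589 at 30 bp. The windows centred on 8 and 10 bp share spacings with that of 8 to 10 bp, so they are not separate from it. With DNMT3A2 they gave -0.00951 ± 0.00440 and 0.0129 ± 0.00397. At 10 bp DNMT3B1 gave 0.00559 ± 0.00613. The knockout gave 0.00677 ± 0.00588 at 8 bp and -0.00653 ± 0.00599 at 10 bp. Contrasts of the size seen at 9 bp with DNMT3A2 thus also appeared at 32 and 35 bp, but with larger SEs. The ranks go by size alone and take no account of the SE. For the level, the contrast at 9 bp ranked 15, 19 and 19 of 29. Its highest values were 0.065 at 15 bp with DNMT3A2, 0.074 at 14 bp with DNMT3B1 and 0.048 at 15 bp in the knockout. Its lowest values were at 11 bp in all 3 lines, at -0.071, -0.11 and -0.068. The trend-free r curves had little in common between lines, with Pearson r of -0.342, -0.167 and 0.247 over 37 spacings for DNMT3A2 with DNMT3B1, DNMT3A2 with the knockout and DNMT3B1 with the knockout.

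**Figure D3:**
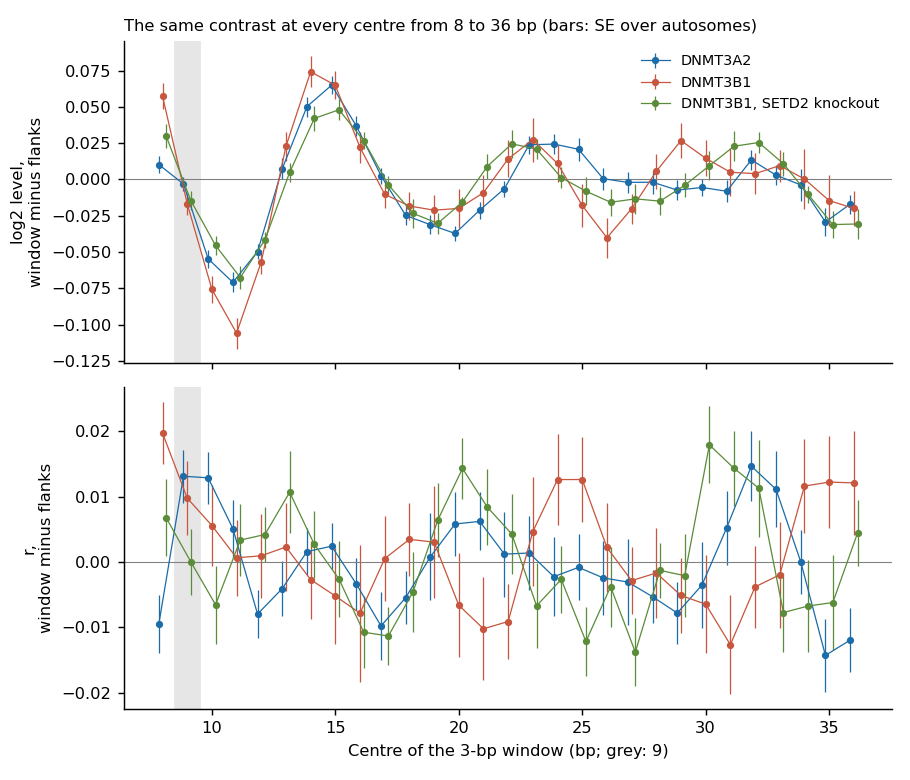
The contrast of a 3 bp window with the 3 spacings on either side (vertical axes: log2 level above, Pearson r below) for windows centred on 8 to 36 bp, with 1 colour per line, bars giving the SE over autosomes and grey marking 9 bp. The 3 level curves move together with a low at 11 bp and a high at 14 to 15 bp, and the r curves cross 0 repeatedly without a shared peak at 9 bp.

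CpGs a few bases apart are covered largely by the same reads, and less so with distance. This was followed by a coverage difference index, the mean squared difference between the read counts of the 2 CpGs over their mean summed count. The index is 0 when every read covers both. It also grows where coverage is uneven, so its differences between libraries of unlike depth cannot be read as differences in shared reads. Over 4 to 6 bp the index stood at 0.124 with DNMT3A2, 0.133 with DNMT3B1 and 0.288 in the knockout. At 8 to 10 bp it was 0.211, 0.228 and 0.511, and at 38 to 40 bp 0.897, 0.956 and 2.18. It slowed near 100 bp in the DNMT3A2 and DNMT3B1 lines, at 2.02 and 2.10 for 100 to 119 bp and 1.99 and 2.06 for 140 to 159 bp. In the knockout it climbed more slowly from about 50 bp, from 2.69 for 50 to 54 bp to 3.06 for 100 to 119 bp and 3.35 for 180 to 199 bp. The value of r was 0.0319 for 50 to 54 bp in the knockout, where it was still 0.132 with DNMT3A2 and 0.0785 with DNMT3B1. At 90 to 99 bp r was 0.0437, 0.0246 and 0.0189 with DNMT3A2, the DNMT3B1 line and the knockout. The part of shared reads in r was not tested, since the table holds no single reads.

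A comparison that shares no reads takes the first CpG from one line and the second from another. That r lay between 0.0264 and 0.0586 over 4 to 40 bp for the DNMT3A2 and DNMT3B1 lines, between 0.0413 and 0.0758 for the DNMT3A2 line and the knockout, and between 0.0194 and 0.0447 for the DNMT3B1 line and the knockout. All values were below the r within any one line at the same distance up to 40 bp. The 8 to 10 bp contrast of this r was -0.00186 ± 0.00277, 0.00409 ± 0.00271 and -9.7e-04 ± 0.00260 for these 3 combinations, each with 0 inside its 95% limits. For the DNMT3A2 line and the knockout the limits left out 0 under 3 of 12 alternative settings. There the window of 9 to 11 bp gave 0.00817 ± 0.00290, rank 1 of 29 centres, while isolated pairs gave -0.00634.

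**Figure D4:**
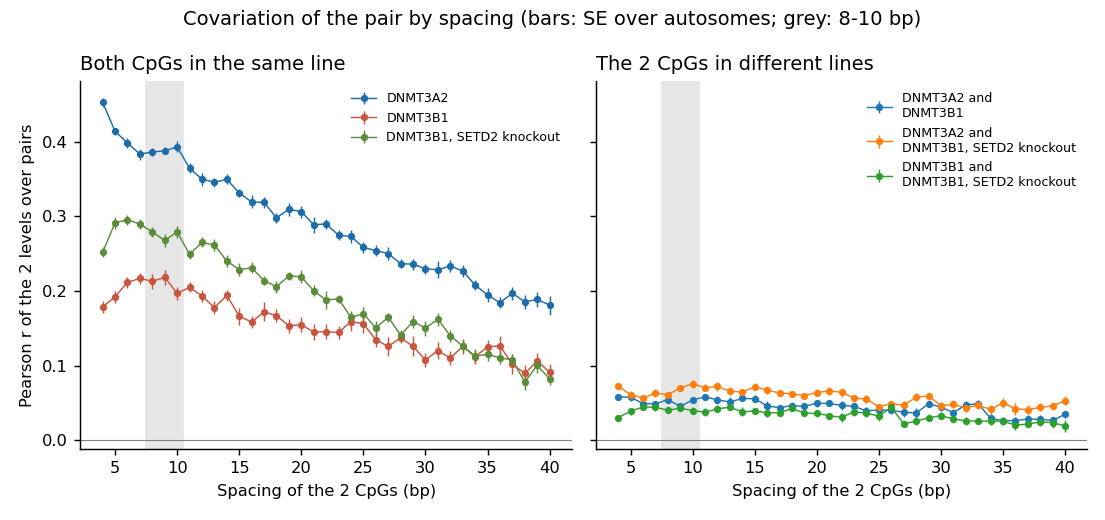
Pearson r over pairs between the levels of the 2 CpGs (vertical axis, the same in both panels) against their distance in bp, within a line (left) and with the CpGs taken from different lines (right); bars are the SE over autosomes and grey marks 8 to 10 bp. With DNMT3A2 r declines from 0.452 at 4 bp with a short plateau up to 10 bp; with DNMT3B1 and in the knockout it is first higher than at 4 bp, up to 0.218 at 9 bp and 0.295 at 6 bp, and then declines; between lines it stays below 0.08.

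**Figure D5:**
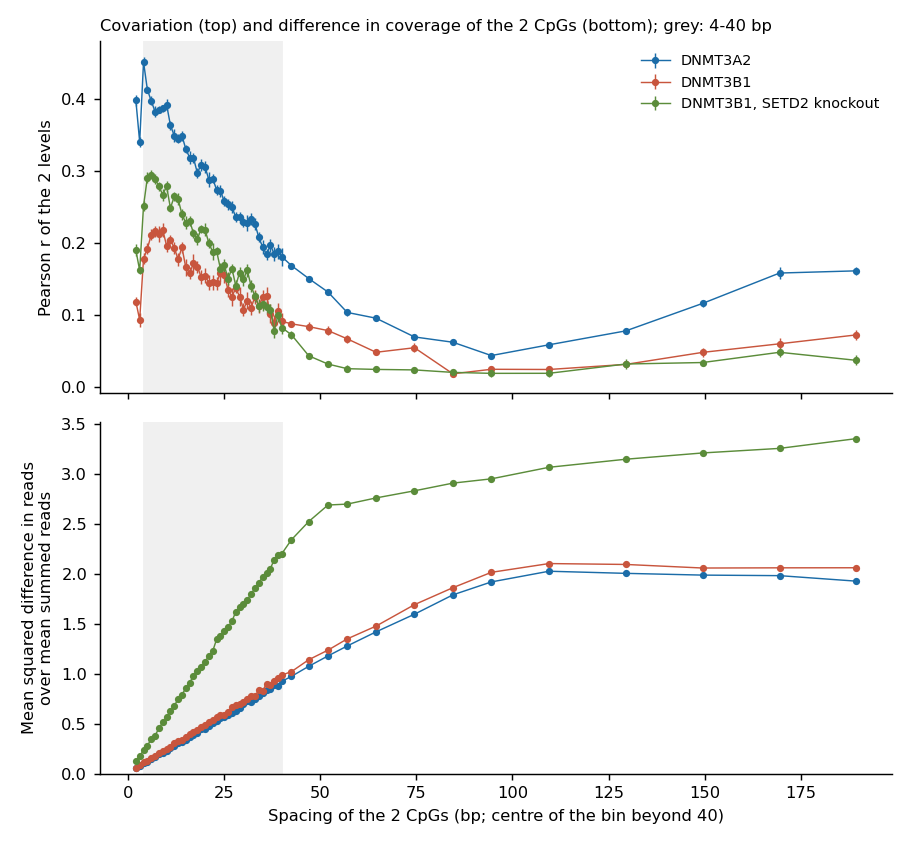
Pearson r within each line (top) and the coverage difference index (bottom: mean squared difference in reads over mean summed reads) against the distance between the CpGs in bp, single distances up to 40 bp and bins beyond; grey marks 4 to 40 bp. The index climbs through the grey range in all libraries then slows near 50 bp in the knockout, where it still reaches 3.35 at 180 to 199 bp, and flattens near 100 bp in the other two, while r declines and is higher again beyond 140 bp with DNMT3A2.

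The largest departure of a single spacing was at 4 bp with DNMT3A2, and it was picked out after the levels had been seen. The level at 4 bp was 1.17 times that at 5 bp in that line, a log2 difference of 0.23 ± 0.0092 with the same sign on 19 of 19 autosomes. With DNMT3B1 the difference was -0.0040 ± 0.015 and in the knockout -0.011 ± 0.016, each negative on 8 of 19 autosomes. The difference between lines was itself -0.23 ± 0.016 for DNMT3B1 minus DNMT3A2 and -0.24 ± 0.017 for the knockout minus DNMT3A2, with the same sign on 19 of 19 autosomes. The pairs at 4 bp were also the most numerous, at 47049, and 0.884% of them lay in distance patterns of 5 successive gaps that recur at 10 or more places. Without the recurring patterns the DNMT3A2 level at 4 bp was 11.8%, the DNMT3B1 level 3.69% and the knockout level 7.48%.

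Set against the DNMT3A2 line, the DNMT3B1 line had a log2 level ratio of -1.68 ± 0.014 at 4 bp and -1.45 ± 0.012 at 5 bp, and over 4 to 40 bp the ratio lay between -1.68 and -1.40. The knockout over the DNMT3A2 line lay between -0.66, at 4 bp, and -0.35, at 40 bp. The knockout over the DNMT3B1 line lay between 0.98 and 1.11. The lowest value of both ratios to the DNMT3A2 line thus stood at 4 bp, whereas the ratio of the 2 DNMT3B1 lines had its lowest value at 7 bp. These ratios compare single libraries.

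The 3 pairs at 9 bp with the most methylated reads over both CpGs and all lines show how single pairs behave. None was taken from chromosome 18, and the rule that chose them fixes that they are high. At CpGs 145206365 and 145206374 of chromosome 6, methylated reads were 0 of 18 and 6 of 22 with DNMT3A2, 1 of 8 and 1 of 8 with DNMT3B1, and 20 of 36 and 26 of 43 in the knockout. At CpGs 44512972 and 44512981 of chromosome 9 they were 2 of 18 and 6 of 19, 16 of 22 and 16 of 25, and 3 of 17 and 8 of 21 in the same order of lines. At CpGs 79499942 and 79499951 of chromosome 15 they were 1 of 10 and 3 of 11, 8 of 15 and 0 of 13, and 15 of 52 and 23 of 54. Both CpGs were high in 1 line of the first and of the second pair, and in the third the DNMT3B1 line had methylated reads at 1 CpG alone.

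The base that follows the CpG could be read for the pairs inside placed promoters, and this split was chosen after values had been seen. On each strand a purine or a pyrimidine follows the CpG, and a CpG was put in 1 of 3 classes by both strands. With DNMT3A2 the level was 5.60% ± 0.493 with a purine on both strands (1158 CpGs), 7.04% ± 0.337 with a purine on 1 strand (2134 CpGs) and 8.84% ± 0.658 with a pyrimidine on both (980 CpGs). With DNMT3B1 the same classes had 3.70% ± 0.193, 1.99% ± 0.226 and 1.23% ± 0.144. In the knockout they had 9.21% ± 0.381, 4.95% ± 0.212 and 3.66% ± 0.349. The order of the classes was thus opposite with DNMT3A2 and in both DNMT3B1 lines. The ratio of purine to pyrimidine on both strands came to 0.634 ± 0.0762 with DNMT3A2, 3.01 ± 0.413 with DNMT3B1 and 2.52 ± 0.242 in the knockout. The purine class was the higher one on 4, 18 and 18 of 18 autosomes, chromosome 18 not being among them.

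Among the sequences shown, the first CpG of the Myh2 pair has a pyrimidine after it on both strands and its second CpG a purine on both. Its first CpG had methylated reads with DNMT3A2 and none with DNMT3B1 or the knockout, and its second had methylated reads with DNMT3A2 and the knockout. Both CpGs of the 7, 8, 9, 10 and 11 bp pairs shown have a purine on at least 1 strand. The pairs were picked by methylated reads summed over all lines, so this trait is not independent of that choice. A purine on both strands made up 28.6% of CpGs in promoter pairs at 8 to 10 bp and 26.7% in the flanks. Single spacings differed more, with 28.4% at 4 bp against 20.8% at 5 bp, and 31.2% at 7 bp against 26.1% at 11 bp. A pyrimidine on both strands made up 23.5%, 24.5% and 21.6% at 4, 5 and 7 bp, and 17.01% at 11 bp. These shares rest on 264, 216, 218 and 241 CpGs, and the part of the classes in the levels by spacing was not tested. Promoter pairs as a whole were methylated in 7.16% of reads with DNMT3A2, 2.24% with DNMT3B1 and 5.90% in the knockout. At 5 to 7, 8 to 10 and 11 to 13 bp the DNMT3A2 level was 7.49%, 7.61% and 6.32%. It was 2.21%, 2.51% and 2.04% with DNMT3B1, and 6.43%, 5.79% and 5.31% in the knockout. These levels rest on 366, 332 and 301 pairs, and their differences were not tested. The base after the CpG was not read outside promoters.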

How the data were processed

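Whole-genome bisulfite libraries of the 3 lines were used. Per the file headers, the authors' deposited tables give methylated and total read counts per CpG on mm9 (build per the submitters' processing notes). The knockout table also holds the deposited fraction of methylated reads, which was not needed beyond a check. The aligner is not given in the sources used here, nor is the caller. The columns name the line and not its 2 runs, which were taken as combined; for the knockout it is not known whether 1 or both runs entered. The 2 deposited knockout tables are identical and were used once, and the knockout lists CpGs with 10 or more reads, so it sets the coverage of the pairs.

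Levels are summed methylated over summed reads. Covariation is Pearson's r over pairs, with relative covariance given beside it where named. SEs come from leaving out 1 of 19 autosomes at a time, or 1 of 18 for promoter levels. The 95% limits are normal limits from that SE, and no p-value was computed because each line is 1 library. Intervals cover variation along the genome in that library, not between cultures. The text names the spacings from 5 to 13 bp and the highest and lowest spacing of each line from 4 to 40 bp. It also names the 3 pairs at 9 bp chosen, as stated above, by methylated reads. The members, spacings and lists were chosen with earlier results of these data known. Alternatives varied coverage limits, density, window and flanks, isolated pairs, second neighbours, weighting, autosomes, recurring distance patterns and the measure of covariation. The scripts were tested on simulated data. Scripts ran under Python 3.11.15 with pandas 2.3.3, scipy 1.17.1, numpy 2.4.6 and, for plots, matplotlib 3.10.9. RefSeq promoters (GRCm38.p6) were placed by exact CpG distances, without converting coordinates, because no genome of the build was used.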

Additional observations from a re-analysis of the deposited data

How the results depend on the processing

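The values rest on 1 library per line, so replicates could not be left out. No paired analysis was possible because the columns carry no replicate numbers. Single reads are not in the tables, the base context outside promoters was not read, and errors over autosomes do not cover differences between cultures. The cause of the changes listed here was not tested. Leaving out autosomes 6, 8 and 11, the lower coverage maximum and leaving out recurring 5-gap patterns (chosen after the data had been seen) moved each of the 26 main values by less than 95% limits around it. The 8 to 10 bp contrast of r with DNMT3A2 stayed positive in 13 of 13 alternatives, from 0.00122 to 0.0375. With DNMT3B1 it ran from -0.00492 to 0.0224 and in the knockout from -0.00725 to 0.00702. Values are given in the order DNMT3A2, DNMT3B1, knockout where all 3 moved.

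Minimums of 1 and of 10 reads changed the limit with DNMT3A2 and DNMT3B1 alone, as the knockout lists only CpGs with 10 or more. With a minimum of 1 read, r over all pairs was 0.303 (DNMT3A2) and 0.156 (DNMT3B1). The r contrast difference of DNMT3B1 minus DNMT3A2 was then -0.0161. With 10 reads the level contrast was 0.0026 with DNMT3B1 and 5.8e-04 in the knockout, both of opposite sign to the main value. The r contrast of DNMT3B1 was -0.00171, its difference from DNMT3A2 -0.0153, r 0.331 (DNMT3A2) and 0.172 (DNMT3B1), and 4 over 5 bp 0.035 (DNMT3B1) and 0.038 (knockout).

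At 20 to 39 CpGs per kb levels were 6.77%, 2.47% and 5.03% and r 0.367, 0.179 and 0.239. The level contrast turned to 0.0045 (DNMT3B1) and 0.0055 (knockout), its DNMT3B1 minus DNMT3A2 difference was 0.014, and the r contrast of DNMT3A2 was 0.00122. The cross-line contrast of DNMT3A2 and the knockout was -0.00537. The 4 over 5 bp values were 0.28, 0.13 and 0.069, and DNMT3B1 minus DNMT3A2 -0.15. At 5 to 9 CpGs per kb levels were 8.67% (DNMT3A2) and 7.33% (knockout), and r 0.298, 0.147 and 0.202. Level contrasts were 0.012, 0.0055 (reversed) and -0.037, with a knockout minus DNMT3B1 difference of -0.042. The r contrast of DNMT3B1 was -0.00492, and the differences were -0.0177 (DNMT3B1 minus DNMT3A2) and 0.00937 (knockout minus DNMT3B1). Cross-line contrasts were 0.00533 (DNMT3A2 and DNMT3B1) and -0.00685 (both DNMT3B1 lines), and 4 over 5 bp was 0.20 (DNMT3A2).

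Among isolated pairs (291723) level contrasts were -0.024, 0.020 (reversed) and 0.0011 (reversed), with differences of 0.044 (DNMT3B1 minus DNMT3A2) and -0.018 (knockout minus DNMT3B1). The DNMT3A2 level was 9.31%, r 0.310 (DNMT3A2) and 0.161 (DNMT3B1), the cross-line contrast of DNMT3A2 and the knockout -0.00634, and 4 over 5 bp 0.041 (knockout) and -0.19 (knockout minus DNMT3A2). For second neighbours (285135 pairs with 1 CpG between) level contrasts were 0.025, 0.033 (reversed) and 0.061 (reversed), with differences of 0.0082 and 0.029. The r values were 0.281, 0.139 and 0.171 and the DNMT3A2 level 9.90%. The r contrasts were 0.0375 (DNMT3A2) and 0.0224 (DNMT3B1), their difference -0.0151, and the cross-line contrast of these lines -0.00864. The 4 over 5 bp values were 0.59, -0.21 and -0.054, with differences from DNMT3A2 of -0.80 and -0.64.

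The knockout minus DNMT3A2 difference of the level contrast was 0.015 at 20 to 39 CpGs per kb, -0.048 at 5 to 9, 0.026 in isolated pairs, 0.037 for second neighbours, 0.0056 without recurring 3-gap patterns and 0.0092 with a window of 9 to 11 bp. That of the r contrast turned to 0.00212 at 20 to 39 CpGs per kb and was -0.0305 for second neighbours.

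A window of 9 to 11 bp gave level contrasts of -0.055, -0.076 and -0.046 and a knockout minus DNMT3B1 difference of 0.030. Flanks of 6 to 7 and 11 to 12 bp gave -4.6e-05 with DNMT3B1. Correction of r for counting error, which assumes independent reads, gave 0.474, 0.244 and 0.283. Without recurring 3-gap patterns r was 0.309, 0.161 and 0.206, the DNMT3A2 level contrast -0.014 and the DNMT3B1 minus DNMT3A2 difference 0.0094.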

Other observations

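Pairs 2 and 3 bp apart, closer than the pairs of the report, were counted with the same filters (75729 pairs). At 2 bp, where the CpGs touch, levels were 9.99% with DNMT3A2, 2.18% with DNMT3B1 and 4.89% in the knockout. The log2 ratio of the DNMT3B1 to the DNMT3A2 line was -2.20 ± 0.024 there. It was -1.39 ± 0.014 at 3 bp, where levels were 9.27%, 3.53% and 6.77%.

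Beyond 40 bp the r of the 2 CpGs was not monotonic in distance. After 0.0437 at 90 to 99 bp it was 0.159 at 160 to 179 bp and 0.162 at 180 to 199 bp with DNMT3A2, and 0.0856 at 200 to 299 bp. With DNMT3B1 the values were 0.0246, 0.0601, 0.0725 and 0.0372, and in the knockout 0.0189, 0.0483, 0.0370 and 0.0264. The coverage difference index changed little from 100 to 119 bp (2.02) to 140 to 159 bp (1.99) with DNMT3A2. With the first CpG from the DNMT3A2 line and the second from the knockout, r was 0.0265 at 100 to 119 bp and 0.0631 at 160 to 179 bp. For the DNMT3A2 and DNMT3B1 lines it was 0.0176 and 0.0454, and for the DNMT3B1 line and the knockout 0.00649 and 0.0448. The part of any cause in this pattern was not tested.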
